A study of Canis lupus familiaris with 29 samples.

Results

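Catecholamine synthesis, storage, reuptake and breakdown were examined through 9 genes, TH, DDC, DBH, PNMT, SLC18A1, SLC18A2, SLC6A2, CYB561 and MAOA. They were taken by gene name from a table of 30951 genes, and all 9 were found and passed the filter on low counts in every comparison. RNA sequencing had been performed on bulk tissue of 29 dogs (Canis lupus familiaris). Of these samples, 10 were normal adrenal medullas (NAMs) dissected from healthy research dogs, and 19 were pheochromocytomas and paragangliomas (PPGLs), tumors of the chromaffin cells, from client-owned patients of several clinics. The PPGLs were labeled group 1 (7 tumors) or group 2 (12 tumors), which the authors had drawn from a principal component analysis of these same libraries. The labels gave no genotype, age or treatment, and the origin of the dogs cannot be told apart from the tissue.

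Chromaffin cells of the adrenal medulla build catecholamines from tyrosine in a fixed order of steps, by way of dopa, dopamine and noradrenaline to adrenaline, and the last methylation step defines the adrenaline-producing cell. The products are pumped into dense-core granules by vesicular monoamine transporters, part of what is released is taken back up, and cytosolic amines are oxidized at the mitochondrial outer membrane. PPGLs are known for releasing catecholamines and their methylated metabolites, and tumors differ in which amine they make.

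Reads had been counted per gene over its exons. The NAM libraries held 19258054 to 35918182 counts, and the PPGL libraries 18208718 to 31919833. Levels are given as CPM, the count of a gene scaled by the total of its library, after normalization by the trimmed mean of M-values (TMM). A floor of 3 counts corresponded to 0.0835 to 0.156 CPM in the normal samples and, in tumors, to 0.0940 to 0.165 CPM, before TMM and for counting error only. The 9 genes together took 0.819% to 2.76% of all counts in NAMs, with a median of 1.11%, and 0.405% to 3.74% in PPGLs, with a median of 1.81%.

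The tissue labels were checked against marker genes. Of 12 chromaffin and neuroendocrine markers 10 were in the table, and their summed level was 9484 to 71386 CPM in NAMs, 2449 to 105830 CPM in group 1 and 18194 to 94281 CPM in group 2. The most abundant was CHGB, a granule protein, at 5688 CPM or more in every NAM and 9361 CPM or more in every group 2 tumor. Group 1 tumor 7 stood apart with 27.1 CPM of CHGB and the lowest summed level, although its PHOX2A, a transcription factor of sympathoadrenal cells, was at 276 CPM against at most 206 CPM in NAMs. Results whose call changed without this tumor are given with and without it.

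Adrenal cortex was present in the NAM samples. Of 12 cortical markers 9 were in the table, and their summed level was 12630 to 61818 CPM in NAMs with a median of 33161 CPM, 201 to 31112 CPM in group 2 with a median of 3356 CPM, and 21.6 to 1135 CPM in group 1 with a median of 202 CPM. CYP17A1 was the most abundant in NAMs and in group 2, and STAR in group 1. No cortical marker was at 0 in any NAM or group 2 tumor, whereas in group 1 NR0B1 was at 0 in 6 tumors, MC2R and MRAP in 4 each, CYP11A1 in 2 and HSD3B2 in 1. In bulk tissue, fewer chromaffin cells and less RNA per chromaffin cell cannot be told apart. A fit with the cortical score, the mean log2 CPM of these markers, as a covariate is given below where it changed a call or a direction. The score was 8.40 to 10.5 in NAMs, and of the tumors only group 2 tumor 10, at 9.45, reached that range. Score and tissue can thus hardly be told apart, and these fits do not give differences freed of cortex.

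Per length of exon, the order of the genes in NAMs by median was DBH (2831 CPM per kb), PNMT (1722 CPM per kb), TH (598 CPM per kb), CYB561 (526 CPM per kb), SLC18A1 (223 CPM per kb), SLC6A2 (84.0 CPM per kb), DDC (76.6 CPM per kb), SLC18A2 (23.5 CPM per kb) and MAOA (14.5 CPM per kb). The ranges of all neighbors in this order overlapped. Within each NAM, however, DBH lay above PNMT and PNMT above TH per kb in all 10, TH above CYB561 in 9, and SLC6A2 above DDC in 5. In group 2 the order by median was DBH, CYB561, TH, SLC18A2, PNMT, SLC18A1, DDC, SLC6A2 and MAOA, with PNMT at place 5, or at place 7 when levels were scaled as TPM. In group 1 SLC18A2 was last, at a median of 0.702 CPM per kb.

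Tumors of both groups were compared with NAMs to learn which genes differ in tumor tissue. Of the 9 genes, 2 differed in PPGLs against NAMs at the threshold of an FDR-adjusted p below 0.05 in the quasi-likelihood F test of edgeR. CYB561 was higher, 1 gene of 9, beside 22.3% of all 14766 genes tested, and PNMT was lower, 1 gene of 9, beside 15.2%. In no gene of the 9 did all PPGLs lie outside the range of the NAMs on the same side, beside 0.704% of all genes. The median log2 fold change (log2 FC) of the 9 genes was 0.09, and that of all genes tested was 0.13.

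**Figure D1:**
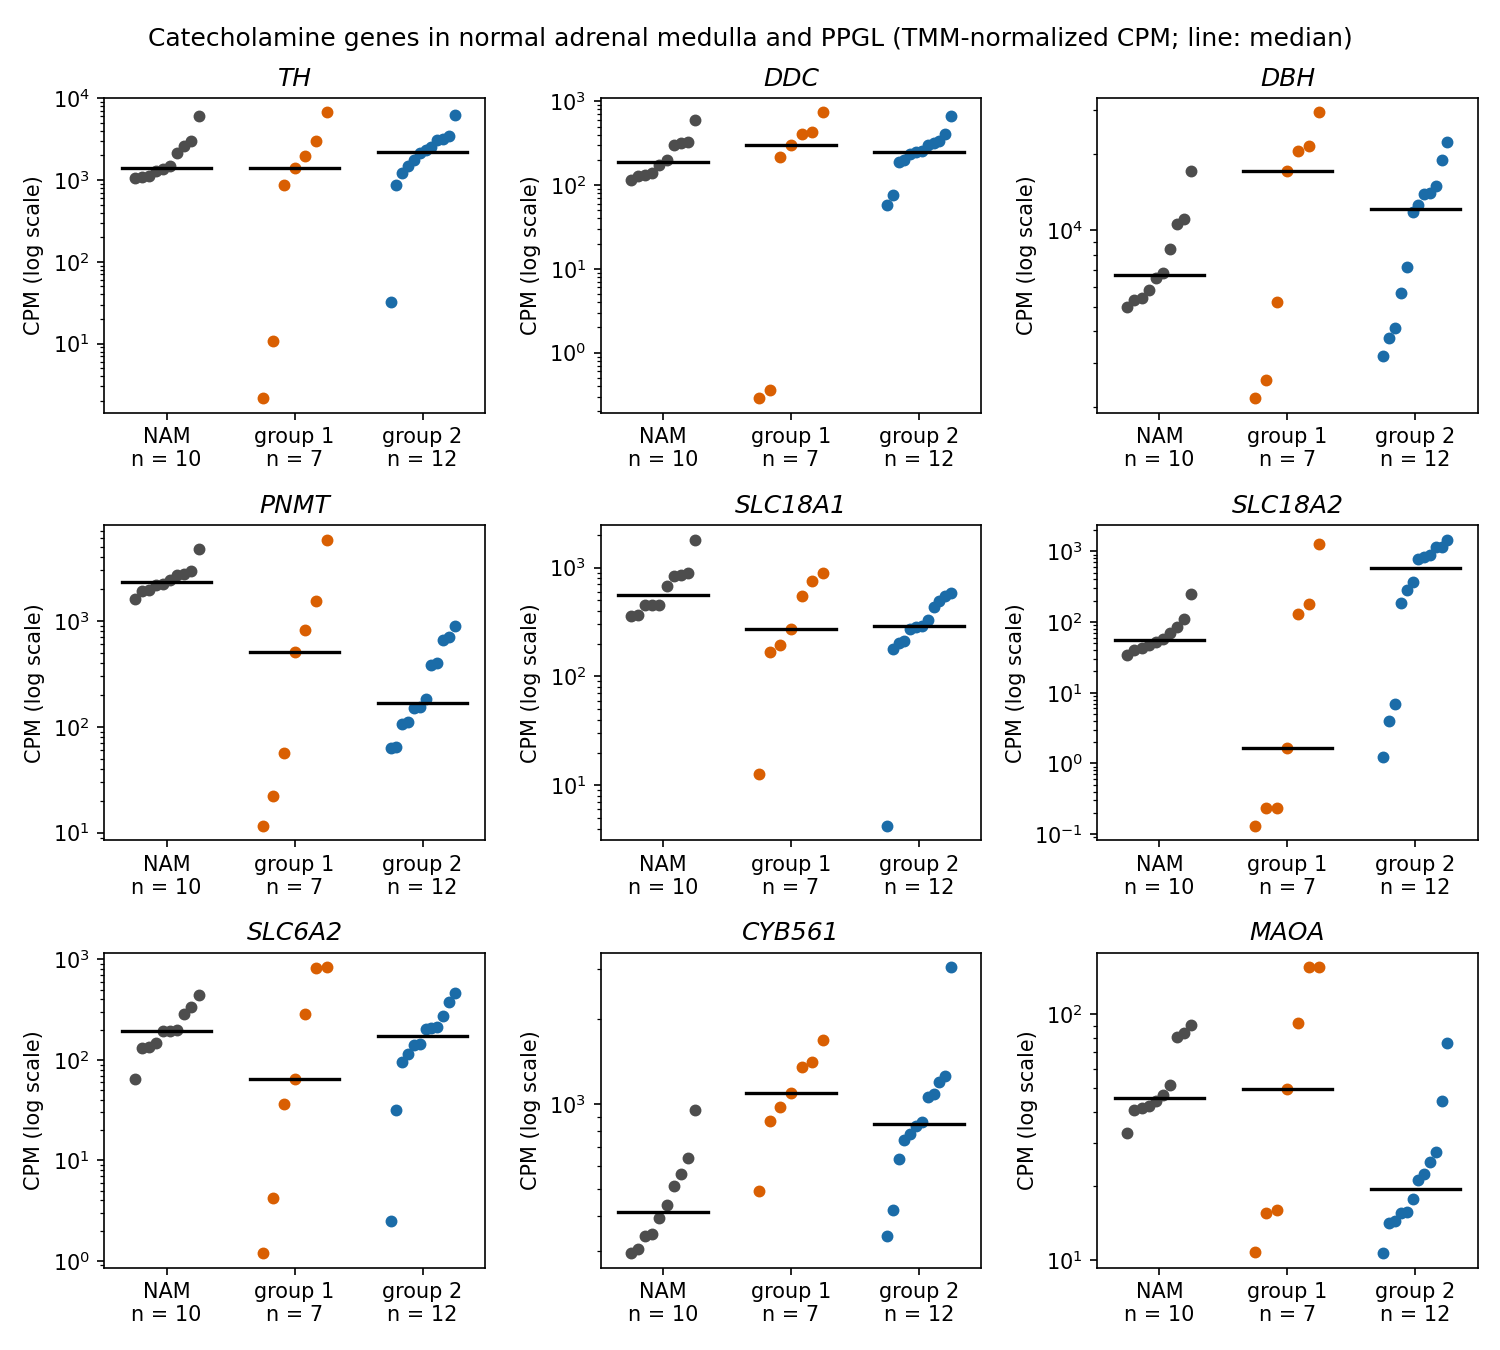
TMM-normalized CPM (log axis) of the 9 genes in each of 10 NAMs, 7 group 1 tumors and 12 group 2 tumors; points are samples sorted by level and lines are medians. PNMT lay between 62.5 and 890 CPM in group 2 and between 1602 and 4767 CPM in NAMs, without overlap, and SLC18A2 spread from 0.131 to 1456 CPM among the tumors.

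The first step is catalyzed by TH, tyrosine hydroxylase, the rate-limiting enzyme (ENSCAFG00000010099, CanFam3.1 chromosome 18, 46327137 to 46335602, minus strand). TH was at 1057 CPM in the lowest NAM, 1420.2 CPM at the median and 5971 CPM in the highest. In group 1 the lowest, median and highest were 2.15, 1382 and 6712 CPM, and in group 2 they were 32.3, 2213 and 6258 CPM. The groups overlapped, with 12 of 19 tumors within the NAM range, 5 below every NAM and 2 above. The lowest were group 1 tumor 5 at 2.15 CPM, group 1 tumor 3 at 10.8 CPM and group 2 tumor 7 at 32.3 CPM, followed by group 2 tumor 11 at 859 CPM and group 1 tumor 1 at 863 CPM. Group 1 tumor 6 and group 2 tumor 3 were above every NAM, at 6712 and 6258 CPM. PPGLs differed from NAMs by a log2 FC of 0.07 (SE 0.63, FDR-adjusted p = 0.937), and 12 of 19 tumors lay above the NAM median. By limma-voom, which averages log values, it was -0.90.

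DDC, the decarboxylase that turns dopa into dopamine, lies on the same chromosome (ENSCAFG00000003400, 18, 1803273 to 1867616, minus strand). Its lowest, median and highest levels were 115, 187 and 595 CPM in NAMs, 0.285, 302 and 739 CPM in group 1, and 58.4, 252 and 660 CPM in group 2. The lowest tumors were again group 1 tumors 3 and 5, with 6 and 12 counts, that is 0.285 and 0.358 CPM. Group 2 tumor 7, low in TH, had 190 CPM of DDC, within the NAM range. The groups overlapped, with 13 of 19 tumors inside the NAM range, 15 above the NAM median and a log2 FC of 0.22 (SE 0.58, FDR-adjusted p = 0.787), or -0.66 by limma-voom.

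DBH, which hydroxylates dopamine to noradrenaline inside the granule, lies on chromosome 9 (ENSCAFG00000019783, 50004806 to 50024130, plus strand). Per kb it was the most abundant of the 9 genes by median in every group. The lowest, median and highest levels were 4955 CPM, 6642 CPM and 17272 CPM in NAMs, 2166 CPM, 17186 CPM and 29361 CPM in group 1, and 3183 CPM, 12204 CPM and 22450 CPM in group 2. The tumors spread to both sides of the NAMs, 5 above every NAM and 5 below every NAM. Group 1 tumors 3 and 5 were the lowest, yet they still held 2562 and 2166 CPM of DBH. The difference between PPGLs and NAMs was a log2 FC of 0.57 (SE 0.38, FDR-adjusted p = 0.246), with 12 of 19 tumors above the NAM median.

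PNMT, the methyltransferase that makes adrenaline from noradrenaline, lies on chromosome 9 (ENSCAFG00000016368, 22808601 to 22810551, minus strand). It lies within the span of TCAP on the same strand, but their annotated exons shared 0 bases. PNMT was at 1602 CPM in the lowest NAM, 2341 CPM at the median and 4767 CPM in the highest. In group 1 these values were 11.6, 509 and 5827 CPM, and in group 2 they were 62.5, 169 and 889.9 CPM. Every tumor of group 2 and 6 of 7 tumors of group 1 lay below every NAM. The exception was group 1 tumor 2, at 5827 CPM above every NAM, and group 1 tumor 4 at 1533 CPM came next. The mean of the 10 NAMs was 2555 ± 886 CPM (SD) and that of the 19 PPGLs 666 ± 1312 CPM (SD), a log2 FC of -1.94 (SE 0.64, FDR-adjusted p = 0.0177). Without group 1 tumor 2 the log2 FC was -2.75 (FDR-adjusted p = 0.00019), and it was -2.97 (FDR-adjusted p = 0.0353) in the fit that included the cortical score.

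Within each sample the RNA of PNMT was set against that of DBH as a ratio per kb, which does not depend on the total of the library. This describes transcripts and not the activity of the enzymes. The ratio of PNMT to DBH was 0.347 to 0.853 in NAMs, with a median of 0.536. In the tumors it was 0.00385 to 0.585, with a median of 0.0407, and lay below every NAM in 18 of 19. Group 1 tumor 2, at 0.585, was the only tumor within the NAM range. Among the others the highest were group 2 tumor 8 at 0.280 and group 1 tumor 4 at 0.128. For TH to DBH, by contrast, 9 of 19 tumors lay within the NAM range of 0.157 to 0.341, 8 below it and 2 above it.

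SLC18A1, the vesicular monoamine transporter VMAT1 known from endocrine cells, loads the amines into granules (ENSCAFG00000010147, chromosome 25, 36872636 to 36904056, plus strand). Its lowest, median and highest levels were 356, 564 and 1798 CPM in NAMs, 12.6, 271 and 889 CPM in group 1, and 4.24, 288 and 582 CPM in group 2. Most tumors were in the lower part of the NAM range or under it, 12 of 19 below every NAM, and 7 within the range. Group 1 tumor 7 at 12.6 CPM and group 2 tumor 11 at 4.24 CPM were far below the rest, of which the lowest was group 1 tumor 4 at 169 CPM. The log2 FC was -1.03 (SE 0.44), which missed the threshold with an FDR-adjusted p of 0.0636, although 16 of 19 tumors lay below the NAM median. It passed by DESeq2's Wald test (log2 FC -1.05, FDR-adjusted p = 0.0389) and by the Mann-Whitney U-test (FDR-adjusted p = 0.0180), and when group 1 tumor 2 (FDR-adjusted p = 0.0349), group 1 tumor 3 (0.0449) or group 2 tumor 11 (0.0371) was left out. In the fit that included the cortical score the FDR-adjusted p was 0.169. The call of this gene thus depended on the test.

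SLC18A2, the transporter VMAT2 known from neurons and chromaffin cells, does the same task (ENSCAFG00000011950, chromosome 28, 27731004 to 27767993, plus strand). It was at 34.6 CPM in the lowest NAM, 55.1 CPM at the median and 247 CPM in the highest. In group 1 these values were 0.131, 1.64 and 1258 CPM, and in group 2 they were 1.22, 572 and 1456 CPM. The tumors split widely around the NAMs, with 9 of 19 above every NAM, 7 below every NAM and 3 within the range. Group 1 tumors 1, 2 and 5 had 3, 5 and 8 counts, close to the floor, while group 1 tumor 6 reached 1258 CPM. In group 2, tumors 1, 7 and 9 were low, at 4.01, 7.02 and 1.22 CPM, and 8 of 12 lay above every NAM. The log2 FC of PPGLs against NAMs was 2.53 (SE 1.07), which missed the threshold (FDR-adjusted p = 0.0626), with 12 of 19 tumors above the NAM median. It passed by DESeq2's Wald test (log2 FC 2.52, FDR-adjusted p = 0.0133), whereas by the Mann-Whitney U-test the FDR-adjusted p was 0.446. It also passed without NAM 3 (log2 FC 2.92, FDR-adjusted p = 0.0475), and, at a log2 FC of 2.61, without group 1 tumor 1, 2, 5 or 7 or group 2 tumor 9, with FDR-adjusted p-values of 0.0427, 0.0420, 0.0436, 0.0463 and 0.0472. By limma-voom the direction turned, to a log2 FC of -0.42, and in the fit that included the cortical score it was 4.59 (FDR-adjusted p = 0.0240).

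**Figure D2:**
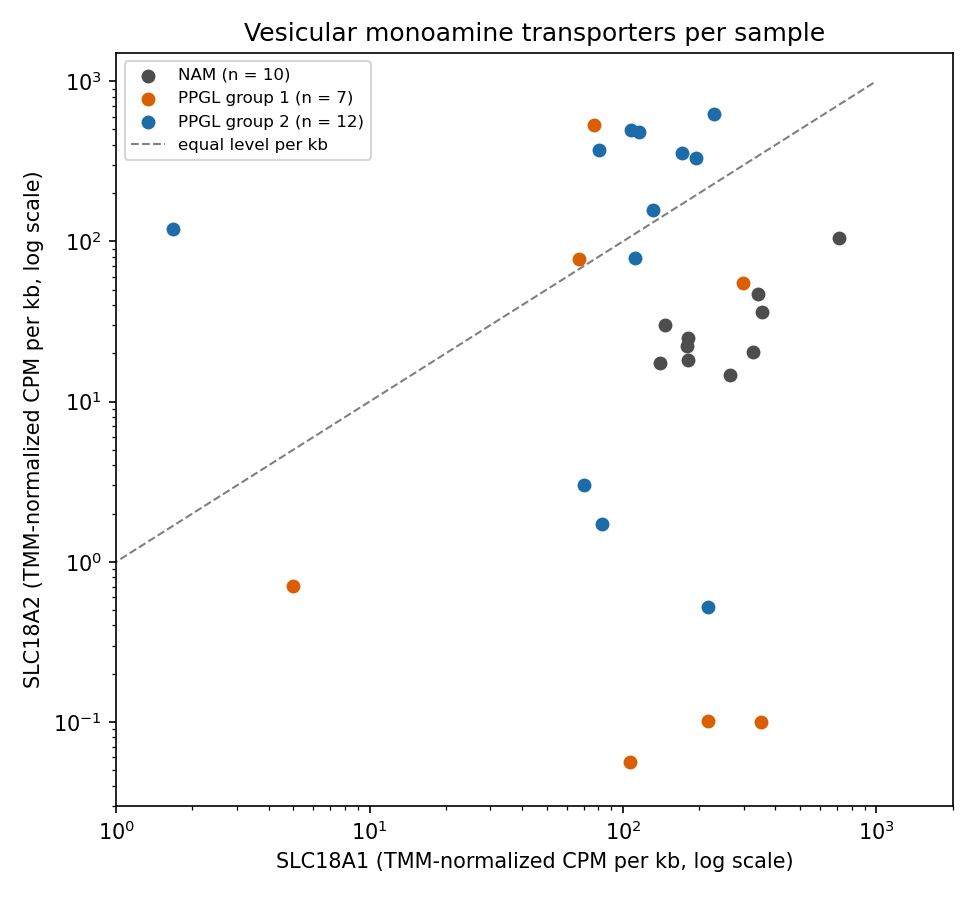
SLC18A2 against SLC18A1 in TMM-normalized CPM per kb of exon (log axes), 1 point per sample; the dashed line marks equal levels. All 10 NAMs lay below the line, and 10 of 19 tumors lay above it.

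Within each sample, the ratio of SLC18A2 to SLC18A1 per kb was 0.0555 to 0.206 in NAMs, with a median of 0.124, so that SLC18A1 was the higher of the pair in all 10. In group 2 it was above 1 in 8 of 12 tumors and reached 71.2 in tumor 11. In group 1 it was above 1 in tumors 4 and 6, at 1.16 and 6.95. It was below every NAM in 3 tumors of group 1 and 3 of group 2, and only group 1 tumors 3 and 7 lay within the NAM range.

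SLC6A2, the noradrenaline transporter that takes released amine back into the cell, lies on chromosome 2 (ENSCAFG00000009395, 60318999 to 60363120, minus strand). Its span overlaps that of CES5A on the opposite strand, while their annotated exons shared 0 bases. Its lowest, median and highest levels were 64.7, 196 and 446 CPM in NAMs, 1.19, 64.4 and 836 CPM in group 1, and 2.49, 174 and 461 CPM in group 2. The groups overlapped. Group 1 tumor 3 (1.19 CPM), group 2 tumor 9 (2.49 CPM) and group 1 tumor 5 (4.23 CPM) were the lowest, and group 1 tumors 1 and 2, at 827 and 836 CPM, the highest. PPGLs against NAMs gave a log2 FC of 0.09 (SE 0.63, FDR-adjusted p = 0.925), with 9 of 19 tumors above the NAM median, and -1.03 by limma-voom and -0.34 in the fit that included the cortical score.

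CYB561, the granule membrane cytochrome that passes electrons to the ascorbate DBH needs, lies on chromosome 9 (ENSCAFG00000013017, 11463585 to 11468282, minus strand). Its gene model of 786 bases is the shortest of the 9. Its lowest, median and highest levels were 294 CPM, 413 CPM and 948 CPM in NAMs, 491 CPM, 1092 CPM and 1684 CPM in group 1, and 339.5 CPM, 846 CPM and 3052 CPM in group 2. All 7 tumors of group 1 and 11 of 12 of group 2 lay above the NAM median, none below every NAM, and 10 of 19 above every NAM. Group 2 tumor 12 was the highest at 3052 CPM, and group 2 tumor 11 at 339.5 CPM the lowest. The mean of the 10 NAMs was 478 ± 202 CPM (SD) and that of the 19 PPGLs 1059 ± 595 CPM (SD), a log2 FC of 1.15 (SE 0.27, FDR-adjusted p = 0.00166). It had the smallest spread of the 9 genes among PPGLs, an SD of 0.73 on the log2 scale.

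MAOA, the monoamine oxidase that breaks down cytosolic amines, lies on the X chromosome (ENSCAFG00000014435, 37677493 to 37744757, plus strand). It was at 32.8 CPM in the lowest NAM, 45.8 CPM at the median and 90.3 CPM in the highest. In group 1 these values were 10.8, 49.7 and 155 CPM, and in group 2 they were 10.7, 19.4 and 76.3 CPM. In group 2, 10 of 12 tumors lay below every NAM, the exceptions being tumor 9 (44.6 CPM) and tumor 11 (76.3 CPM). In group 1, tumors 1, 6 and 7 lay above every NAM and tumors 3, 4 and 5 below. PPGLs against NAMs had a log2 FC of -0.40 (SE 0.42, FDR-adjusted p = 0.474), with 14 of 19 tumors below the NAM median. With the cortical score as a covariate it was -1.80 (FDR-adjusted p = 0.0142).

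The groups of tumors were next compared with each other, to describe the split drawn by the authors. Because the groups came from these libraries, the p-values describe that split only. In the edgeR fit of the tumors alone, none of the 9 genes differed at an FDR-adjusted p below 0.1 in either direction, beside 3.97% of all 14666 genes called higher and 2.95% called lower in group 1. At an unadjusted p below 0.05, 2 of 9 genes were higher in group 1, PNMT and MAOA, beside 10.9% of all genes, and 0 were lower, beside 8.48%. DESeq2's Wald test called the same 2 genes higher, beside 6.25%, and 0 lower, beside 5.98%. The Mann-Whitney U-test called 0 in either direction, beside 1.09% higher and 1.58% lower, and limma-voom also 0, beside 1.28% and 1.66%. Other edgeR fits changed the calls. With the NAMs also in the fit, as in the contrasts below, PNMT (log2 FC 1.96, FDR-adjusted p = 0.0765) and MAOA (log2 FC 1.47, FDR-adjusted p = 0.0262) were higher in group 1, beside 9.24% of 15201 genes, and 0 of 9 were lower, beside 7.64%. MAOA alone passed when levels were scaled by library size only (FDR-adjusted p = 0.0859), beside 4.77% of all genes higher, and with a filter at 1 CPM (FDR-adjusted p = 0.0961), beside 4.05%. Whether PNMT and MAOA differed between the groups thus depended on the fit and the test. No gene of the 9 had groups without overlap, beside 0.191% of all genes. MAOA was closest to the threshold, with means of 70.6 ± 64.3 CPM (SD, n = 7) and 25.4 ± 18.4 CPM (SD, n = 12), a log2 FC of 1.48 (SE 0.49, FDR-adjusted p = 0.101). It passed without group 1 tumor 3, 4 or 5 or group 2 tumor 9 or 11, with FDR-adjusted p-values of 0.0742, 0.0612, 0.0602, 0.0887 and 0.0417, and was 1.20 (FDR-adjusted p = 0.237) without group 1 tumor 7. PNMT had a log2 FC of 1.96 (SE 0.85, FDR-adjusted p = 0.211), while without group 1 tumor 2 it was 0.61. For SLC18A2 it was -1.40 (SE 1.42, FDR-adjusted p = 0.629), -3.52 without group 1 tumor 6, and 1.64 in the fit that included the cortical score. Over all genes the calls fell to 256 higher and 269 lower without group 1 tumor 7, from 582 and 433. In TH, DDC, DBH, SLC18A1, SLC6A2 and CYB561 the log2 FC was between -0.24 and 0.65, and the median of the 9 was 0.36, beside 0.04 over all genes.

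Each group of tumors was also compared with the same NAMs in 1 fit of 3 groups, so the contrasts share their control samples. Against NAMs, 1 gene of 9 was higher in group 1, beside 21% of 15201 genes, and 0 of 9 were lower, beside 14.1%. By an unadjusted p below 0.05 in edgeR the counts were also 1 and 0, beside 26.7% and 17.7% of all genes. DESeq2 called 1 and 0, beside 22% and 16.4%, and limma-voom 1 and 1, the latter PNMT, beside 13.8% and 18%. In group 2, 2 genes of 9 were higher, beside 18.4%, and 2 were lower, beside 14.5%. All group 1 tumors lay on the same side of all NAMs in 0 of 9 genes, beside 6.29% of all genes. For group 2 this held for 1 of 9, PNMT, beside 2.36%.

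Side by side, the log2 FC of PNMT was -1.03 in group 1 (FDR-adjusted p = 0.318) and -2.99 in group 2 (FDR-adjusted p = 0.00164). For CYB561 it was 1.23 in group 1 (FDR-adjusted p = 0.00457) and 1.09 in group 2 (FDR-adjusted p = 0.00549). All 7 group 1 tumors and 11 of 12 group 2 tumors had more CYB561 than the NAM median. MAOA had 0.34 in group 1 (FDR-adjusted p = 0.597) and -1.13 in group 2 (FDR-adjusted p = 0.0282). The value of MAOA in group 1 was 0.02 without tumor 1 and 0.05 without tumor 7. SLC18A2 had 1.50 in group 1 (FDR-adjusted p = 0.333) and 2.90 in group 2 (FDR-adjusted p = 0.0474). The call of SLC18A2 in group 2 was lost when any 1 of 17 samples was left out, namely every NAM but NAM 3, group 1 tumors 3 and 4, and group 2 tumors 2, 3, 4, 5, 8 and 12, with FDR-adjusted p-values of up to 0.0740. It was also lost by limma-voom (log2 FC 1.40, FDR-adjusted p = 0.367) and without a filter on low counts (log2 FC 2.89, FDR-adjusted p = 0.0554). In group 1 its direction turned without tumor 6 (log2 FC -0.60) and by limma-voom (-3.74). For SLC18A1 the values were -0.82 in group 1 and -1.17 in group 2 (FDR-adjusted p = 0.284 and 0.0693), and the latter passed by DESeq2's Wald test (FDR-adjusted p = 0.0369) and without group 1 tumor 7 (FDR-adjusted p = 0.0329). TH, DDC, DBH and SLC6A2 were not called in either contrast. The log2 FC of PNMT in group 1 became -2.38 (FDR-adjusted p = 0.0184) when tumor 2 was left out. With the cortical score as a covariate, group 1 had 0 of 9 genes called and a log2 FC of PNMT of 1.80 (FDR-adjusted p = 0.737), and of CYB561 of 1.30 (FDR-adjusted p = 0.564). In group 2 the same covariate ended the calls of PNMT (-2.04, FDR-adjusted p = 0.187), CYB561 (1.12, FDR-adjusted p = 0.0779) and MAOA (-1.66, FDR-adjusted p = 0.0547), while SLC18A2 had 5.03 (FDR-adjusted p = 0.0389). Cortical scores were -1.62 to 3.15 in group 1 and 8.40 or more in every NAM, without overlap. In the contrast of group 1 the score and the group therefore cannot be told apart. In group 2 only tumor 10, at 9.45, reached the range of the NAMs, so there they can hardly be told apart.

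**Figure D3:**
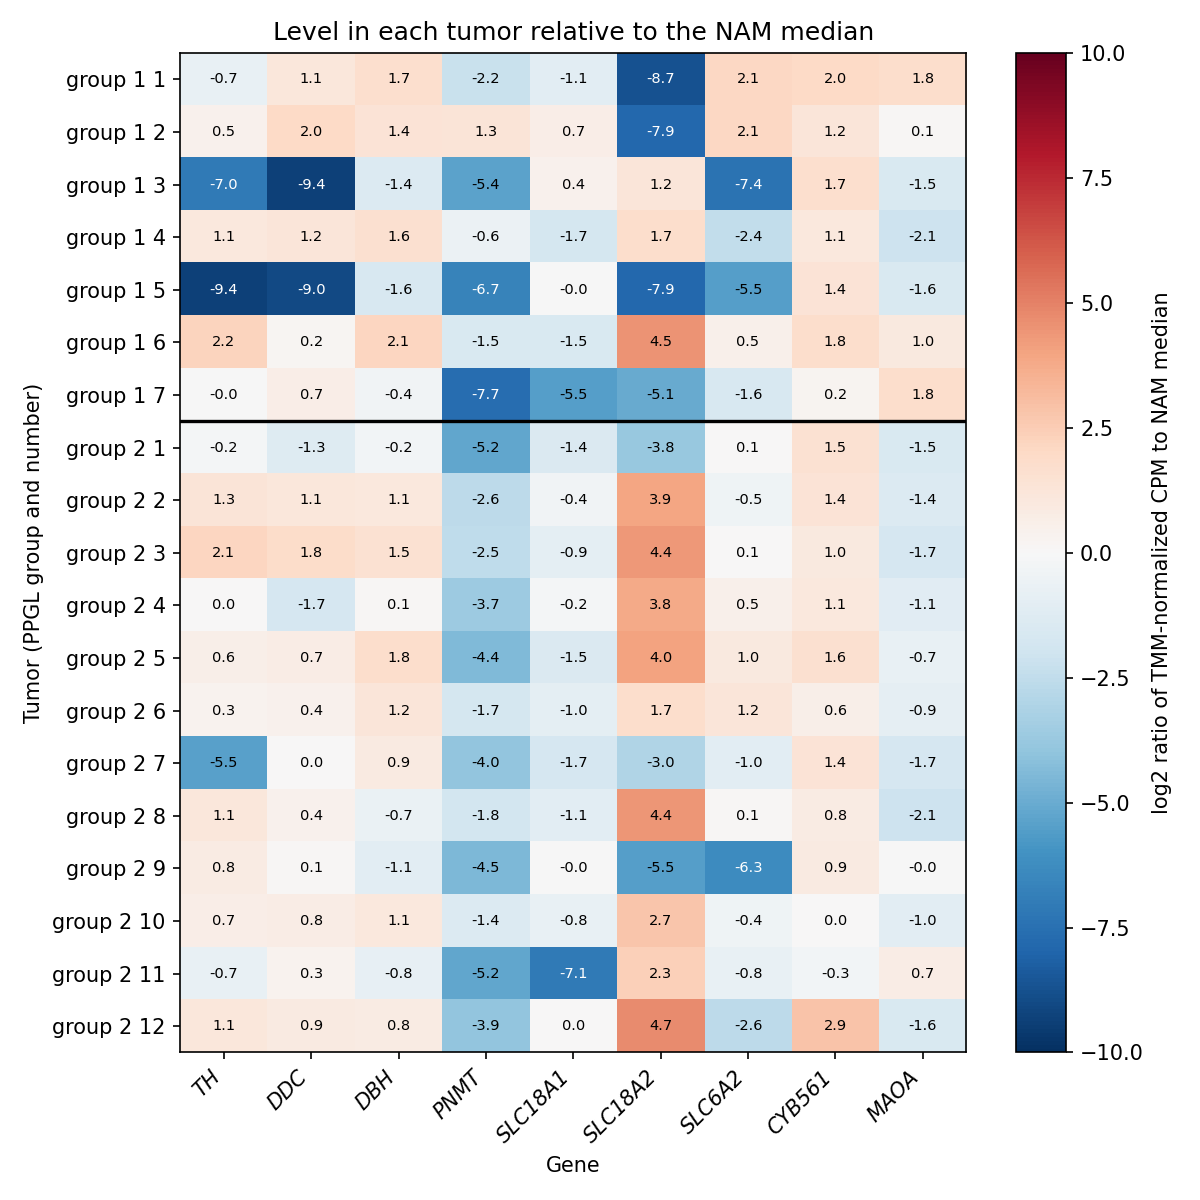
Log2 ratio of TMM-normalized CPM to the NAM median for each of 19 tumors (top to bottom, group 1 above the line and group 2 below it) and each of the 9 genes (left to right); red is higher and blue lower than the NAM median. PNMT was below the NAM median in 18 of 19 tumors and CYB561 above it in 18 of 19.

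Every tumor had at least 4 of the 9 genes outside the range of the NAMs, 4 genes in 5 tumors, 5 in 6, 6 in 3, 7 in 3 and 8 in 2. That is 44.4% to 88.9% of the 9 genes, with a median of 55.6%, beside 39.5% to 67.8% of all 14766 genes tested, with a median of 56%. The share among the 9 was the higher of the pair in 11 of 19 tumors. Group 1 tumor 5 had 7 genes below every NAM (TH, DDC, DBH, PNMT, SLC18A2, SLC6A2 and MAOA) and CYB561 above. Group 1 tumor 3 resembled it, with TH, DDC, DBH, PNMT, SLC6A2 and MAOA below every NAM and CYB561 above, but its SLC18A2 was at 130 CPM, within the range. These tumors were not low in SLC18A1, at 549 and 753 CPM, nor in PHOX2A, at 586 and 910 CPM. Group 2 tumor 3 had TH, DDC, DBH and SLC18A2 above every NAM with PNMT, SLC18A1 and MAOA below. Group 1 tumor 2 was the only tumor with PNMT above every NAM, together with DDC, SLC6A2 and CYB561.

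All 9 genes varied more among the tumors than among the NAMs. On the log2 scale the SD of the 9 genes was 0.43 to 0.84 in NAMs, with a median of 0.73, and 0.73 to 4.71 in PPGLs, with a median of 2.21. Over all genes the median SD was also larger in tumors, at 0.37 in NAMs and 0.66 in PPGLs. The share of all genes with the larger SD in PPGLs was not counted. SLC18A2 had the largest SD in NAMs and in PPGLs. Among NAMs, sample 3 was the highest of the 10 for TH, DDC, DBH, PNMT, SLC18A1, SLC18A2, SLC6A2 and CYB561. The 4 NAMs with the highest TH, samples 3, 4, 10 and 5, were also those with the lowest cortical scores, between 8.40 and 9.23.

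Described over samples without a test, all 36 pairs of the 9 genes had a positive Spearman correlation in the 10 NAMs, with a median of 0.72 and a range of 0.36 to 0.99, the highest for TH and SLC18A1. Over the 19 PPGLs, 24 of 36 pairs were positive, with a median of 0.10. TH and SLC18A1 had 0.03 there, 0.57 within group 2 and -0.39 within group 1. SLC18A2 and MAOA had the lowest value over the PPGLs, -0.33.

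Of 12741 named genes, those with the profile over 19 PPGLs most like that of PNMT were TOMM70, RAB3B and DRG2, with Spearman correlations of 0.947, 0.846 and 0.837. These genes were picked for the highest values among many, and the correlations within groups use the same tumors. Within group 1 (n = 7) the correlations with PNMT were 1, 0.750 and 0.714, and within group 2 (n = 12) they were 0.867, 0.650 and 0.678. For DBH the genes were SDCCAG8, UFL1 and SYTL4, at 0.860, 0.839 and 0.833, with 0.929, 0.857 and 0.786 within group 1 and 0.909, 0.741 and 0.720 within group 2. For TH they were INS, BCL2 and COL20A1, at 0.805, 0.802 and 0.793, with 0.955, 1 and 0.857 within group 1 and 0.648, 0.594 and 0.741 within group 2. INS lies 2015 bases from TH on the same strand and had a mean of only 0.778 CPM in PPGLs, so reads running on from TH could not be told apart from INS transcripts. For SLC18A1 they were MPHOSPH6, SHISA9 and CCL14, at 0.761, 0.712 and 0.658, with 1, 0.750 and 0.857 within group 1, while within group 2 they had 0.762, 0.573 and only 0.287.

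The cofactor of TH is tetrahydrobiopterin, and 6 of its 7 listed supply genes were in the table. Against NAMs, 1 was higher and 1 lower in PPGLs, beside 22.3% and 15.2% of all genes tested. The median log2 FC of the 6 genes was -0.04 beside 0.13 over all genes. PCBD1, which recycles the cofactor, was higher (log2 FC 1.05, SE 0.24, FDR-adjusted p = 0.00136) and in 18 of 19 tumors above the NAM median. GCHFR, which restrains the first enzyme of the supply, was lower (log2 FC -1.86, SE 0.28, FDR-adjusted p = 1.2e-05), with 19 of 19 tumors below the NAM median.

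Of 9 other breakdown and conjugation genes, 7 were in the table. In PPGLs 0 were higher and 4 lower, beside 22.3% and 15.2% of all genes, with a median log2 FC of -1.10. AKR1B1, which reduces aldehydes, had a log2 FC of -2.73 (SE 0.73, FDR-adjusted p = 0.00412), with 18 of 19 tumors below the NAM median. Its median was 483 CPM in NAMs, 5.01 CPM in group 1 and 37.3 CPM in group 2. The summed cortical level had medians of 33161, 202 and 3356 CPM in the same groups. The part of cortex in the levels of this list was not tested. ALDH9A1, which oxidizes aldehydes, had -1.21 (SE 0.21, FDR-adjusted p = 7.35e-05) and RNLS, renalase, -1.10 (SE 0.22, FDR-adjusted p = 0.00038), each with 19 of 19 tumors below the NAM median. MAOB, the partner of MAOA, was not called, at -1.19 (SE 0.59, FDR-adjusted p = 0.116), with 17 of 19 tumors below the NAM median. Per kb MAOB lay above MAOA in all 10 NAMs and all group 2 tumors, and below it in 3 of 7 group 1 tumors.

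Of 17 other transport and granule genes, 14 of the 16 in the table were tested. In PPGLs 0 were higher and 3 lower, beside 22.3% and 15.2% of all genes, with a median log2 FC of -0.13. The lower genes were SLC22A3, an extraneuronal amine transporter (log2 FC -1.53), SLC7A5, which carries large neutral amino acids (-1.39), and SLC23A2, which takes up ascorbate (-1.13). Of 14 transcription factors 13 were tested, 5 were higher and 1 lower, beside the same shares of all genes, with a median log2 FC of 0.81. GATA2 (2.24) and PHOX2A (2.17), known from the sympathoadrenal lineage, were higher. The levels of PHOX2A in all 19 tumors exceeded that of any NAM, beside 0.704% of all genes without overlap in either direction. NR4A1, an immediate early nuclear receptor, was lower at -1.87.

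Beside these differences, 8 of 9 cortical markers were lower in PPGLs than in NAMs and 5 of 10 chromaffin markers were higher. Of the endothelial markers 4 of 7 were lower, and of the fibroblast markers 4 of 7 were higher. Over all genes tested, 22.3% were higher and 15.2% lower. Of 8 leukocyte markers tested 3 were higher and 1 lower. Of 7 proliferation markers 6 were higher, and all 3 erythroid markers tested. Schwann and sustentacular markers (6 tested) and kidney tubule markers (2 tested) were not called, and of 3 hepatocyte markers tested 1 was higher and 2 lower. Apart from the fits with the cortical score, the part of these markers in the levels of the 9 genes was not tested.

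In mean ± SD over 10 NAMs, 7 group 1 and 12 group 2 tumors, the summed fibroblast level was 479 ± 127 CPM, 948 ± 849 CPM and 3676 ± 7120.5 CPM, led by COL1A2 in NAMs and COL3A1 in both tumor groups. The medians were closer together, at 448, 565 and 990.2 CPM, and group 2 tumor 11 was the highest at 25558 CPM. Endothelium had 742 ± 237 CPM, 523 ± 289 CPM and 477 ± 185 CPM, led by VWF in NAMs and PECAM1 in tumors. Leukocytes, led by CSF1R throughout, had 149.8 ± 41.0 CPM, 98.2 ± 40.0 CPM and 175 ± 214 CPM, with a median of 95.8 CPM in group 2 and 824 CPM in its tumor 11. Schwann and sustentacular markers, led by CDH19 in NAMs and ERBB3 in tumors, had 106 ± 37.8 CPM, 63.9 ± 81.9 CPM and 49.4 ± 38.6 CPM, with a median of 29.4 CPM in group 1 and 239 CPM in its tumor 4. Proliferation, led by AURKB in NAMs and TOP2A in tumors, had 35.5 ± 17.6 CPM, 291 ± 425 CPM and 78.7 ± 38.1 CPM. Here the medians were 33.0, 136 and 67.5 CPM, and group 1 tumor 7 was the highest at 1242 CPM. The hepatocyte list, led by APOA1, had 81.4, 24.7 and 54.5 CPM at the mean, the kidney tubule list, led by CUBN, 14.1, 7.52 and 9.34 CPM, and the erythroid list, led by AHSP in NAMs, HBM in group 1 and ALAS2 in group 2, 0.349, 5.97 and 10.3 CPM. For the erythroid list the medians were 0.312, 2.45 and 4.09 CPM.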

How the data were processed

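Counts were analyzed as deposited: the authors aligned single-end reads of a stranded mRNA library to CanFam3.1 with STAR and deposited raw counts of reads per Ensembl gene over exons, without normalization. The exon length in bases came with the same table. The strand setting of the counting and its handling of reads that map to several places were not given in the sources used here. Members and gene lists were chosen with earlier results of these data known. In R 4.3.3, edgeR 4.0.16 (filterByExpr, minimum count 10, minimum total 15, TMM, glmQLFit and glmQLFTest, prior count 0.125) compared 19 PPGLs with 10 NAMs, 7 group 1 with 12 group 2 tumors, and each group with NAMs in a fit of all 29 samples. Adjustment was by Benjamini-Hochberg over all genes tested, and the SE was the log2 FC divided by the root of F. Genes were called at an adjusted p below 0.05, or 0.1 between the groups. Of the pathway lists, up to 3 called genes per direction with the largest log2 FC were named, of the marker lists the summed level and the leading gene, and for TH, DBH, PNMT and SLC18A1 the 3 most correlated genes. For 2 pathway lists, 1 called gene each is not reported here. DESeq2 1.42.0, limma 3.58.1 (voom), the Mann-Whitney U-test, other scalings, filters, covariates and single samples left out were alternatives. The functions were tested on simulated data. Figures used matplotlib 3.10.9. Tumors the authors set aside by PCA are not analysed here.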

Additional observations from a re-analysis of the deposited data

Results flagged for a closer look

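SLC18A1 was at 12.6 CPM in group 1 tumor 7, far from the other 6 tumors of its group, of which the nearest was at 169 CPM. The gap between them took 0.610 of the range of the group on the log2 scale, past the limit of Dixon's test for 7 samples. In all, 18 groups of values (9 genes in NAMs and in group 1) were examined, and chance marks about 1 in 20 such groups. Group 2 was not examined in this way, although SLC18A1 was at only 4.24 CPM in its tumor 11. The same tumor had 27.1 CPM of CHGB.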

How the results depend on the processing

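In PPGLs against NAMs, PNMT and CYB561 kept their direction and their call under all 11 alternatives, with log2 FCs of -3.40 to -1.85 and 1.00 to 1.20, and in all 29 fits with 1 sample left out. The cause of the changes below was not tested. Limma-voom averages log values, in which tumors near 0 weigh more, and the part of this in its changes was not tested either.

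By the DESeq2 Wald test, 2 genes of the 9 were called higher (SLC18A2 and CYB561) and 2 lower (PNMT and SLC18A1) in PPGLs against NAMs, with 3511 higher and 2546 lower over all genes, and 2 were higher in group 1 against group 2, with 916 higher and 877 lower over all genes. In group 2 against NAMs it called 3 lower (PNMT, SLC18A1 and MAOA), with 2518 lower over all genes. The Mann-Whitney U-test called 2 of the 9 lower in PPGLs against NAMs (PNMT and SLC18A1), with 2994 lower over all genes, and 160 higher and 232 lower over all genes between the groups. With all 3 groups in the fit, 2 of the 9 were higher in group 1 against group 2, with 1405 higher and 1162 lower over all genes. By library size only, and with a filter at 1 CPM, 1 of the 9 was higher there, with 699 and 555 higher over all genes. Without a filter on low counts, 1 of the 9 was higher in group 2 against NAMs (CYB561, while SLC18A2 lost its call), with 3178 higher over all 24051 genes.

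By limma-voom, the log2 FC in PPGLs against NAMs turned to -0.90 for TH, -0.66 for DDC, -0.42 for SLC18A2 and -1.03 for SLC6A2. Between the groups it turned to -2.21 for DDC and -1.06 for SLC6A2, with 188 higher and 243 lower over all genes. In group 1 against NAMs it turned to -2.09 for DDC, -3.74 for SLC18A2, -1.73 for SLC6A2 and -0.29 for MAOA, with 1 of the 9 lower, and 2095 higher and 2733 lower over all genes. In group 2 against NAMs it turned to -0.18 for TH, with 1 of the 9 (CYB561) and 1956 of all genes higher, and the call of SLC18A2 (FDR-adjusted p = 0.367, log2 FC 1.40) was lost.

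With the cortical score as a covariate, 2 of the 9 were higher and 2 lower in PPGLs against NAMs, with 1344 higher and 1106 lower over all genes, and SLC6A2 turned to -0.34. Between the groups 15 genes were higher and 101 lower over all genes, and TH turned to 1.69 and SLC18A2 to 1.64. In group 1 against NAMs 0 of the 9 were higher, with 14 higher and 4 lower over all genes, and TH turned to 2.23, PNMT to 1.80 and MAOA to -1.09. In group 2 against NAMs 1 of the 9 was higher and 0 lower, with 823 higher and 554 lower over all genes.

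Sample numbers do not mark the same dog, and of 24 pairs with the same number in different groups only 2 correlated above 0.1 (-0.23 to 0.25), with 2 best matched by number. With the number as a replicate block, 2 of the 9 were lower in PPGLs against NAMs, PNMT and SLC18A1 (FDR-adjusted p = 0.0231), with 2380 lower over all genes, and SLC6A2 turned to -0.37. Under this block 10 genes were higher and 37 lower over all genes between the groups, and DDC turned to -0.0643, DBH to -0.30, SLC18A1 to -0.0819 and SLC6A2 to -1.54. It gave 1921 higher over all genes in group 1 against NAMs, where SLC18A2 turned to -2.25 and SLC6A2 to -0.69, and 1 of the 9 (CYB561) and 1987 of all genes higher in group 2 against NAMs, where SLC18A2 lost its call at 1.50 (FDR-adjusted p = 0.564).

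With 1 sample left out at a time, 1 to 2 of the 9 were higher and 1 to 2 lower in PPGLs against NAMs, with 2945 to 3383 higher and 2009 to 2407 lower over all genes, and the log2 FC spanned -0.10 to 0.40 for TH and -0.14 to 0.27 for SLC6A2. Between the groups 0 to 1 were higher, with 256 to 733 higher and 269 to 485 lower over all genes, and the log2 FC spanned -0.97 to 0.00558 for TH and -0.28 to 0.35 for DDC. In group 1 against NAMs 0 to 1 were lower, with 1934 to 2227 over all genes, and the log2 FC spanned -0.81 to 0.24 for TH, -0.10 to 0.55 for DDC, -0.60 to 1.89 for SLC18A2 and -0.0753 to 0.67 for SLC6A2. In group 2 against NAMs 1 to 2 were higher and 2 to 3 lower, with 2433 to 3010 and 1944 to 2466 over all genes, and the log2 FC spanned -0.0815 to 0.48 for TH, -0.0263 to 0.43 for DDC and -0.38 to 0.00511 for SLC6A2.

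Scaling by library size only moved the median log2 FC of all genes in group 1 against NAMs from 0.13 to 0.24, and the calls over all genes from 3194 higher and 2137 lower to 3820 and 1774. Depth limits the lowest values, such as the 3 counts of SLC18A2 in group 1 tumor 1.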
